A study of Mus musculus with 6 samples.

Results

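Integrin, laminin and nidogen genes were followed in primary adipocytes given miR-182-5p mimic. The set held every gene symbol that begins with Itga or Itgb, the laminin chain symbols Lama, Lamb and Lamc followed by a digit, and Nid1 and Nid2, which came to 45 of the 22609 symbols listed. Of these, 26 encode integrin chains, 11 laminin chains and 2 nidogens. The other 6 (Itgb1bp1, Itgb1bp2, Itgb1bp3, Itgb3bp, Itgbl1 and Itgb2l) share the integrin prefix without being counted here as integrin chains. The rule for members used symbols and no measured value, but the set was proposed with earlier results of these data known.

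The cells were stromal vascular cells of inguinal (subcutaneous) white fat from male C57BL6 mice, aged 3 weeks by the sample labels, which were cultured and, by the study's methods, differentiated into adipocytes, while the labels name growth medium only. In one group, named control vector in the labels and mimic control by the study, 3 samples received a control, and in the other 3 samples miR-182-5p was overexpressed with a mimic. The labels give electroporation as the delivery for both groups, whereas the study's methods describe a lipid reagent and somewhat older mice. Neither source gives the cell preparation behind each sample, the pooling of mice or the time from transfection to RNA isolation, so p-values measure the spread between these samples, which may be technical. Poly(A) RNA was sequenced in strand-specific libraries, with 25869810 to 26484794 reads counted on genes with mimic control and 25960631 to 28796712 with the mimic. Adipocyte genes were well expressed, their 8 markers summing to 12491 to 13269 CPM (counts per 1000000 reads, scaled by the trimmed mean of M values) with mimic control and 8753 to 9845 CPM with the mimic. Of the 8, 1 was higher and 6 lower by the adjusted p of the test described with the member counts. Among all genes tested, 23.2% were higher and 23.5% lower by it. In bulk RNA, fewer cells of a type and less RNA per cell cannot be told apart. Of 9 macrophage markers, none exceeded 216 reads in a sample, and Ptprc, which marks all leukocytes, had 0 to 4 reads.

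Integrins are receptors built of 1 α chain and 1 β chain that span the cell membrane and tie the cytoskeleton to the matrix outside. The α chain largely decides which matrix protein is bound, and β1 is the partner shared by most α chains. Laminins are trimers of 1 α, 1 β and 1 γ chain that form the sheet of the basement membrane, the thin matrix layer that wraps each adipocyte, and nidogens bridge that sheet to the collagen IV network. RNA was measured here, so the values say nothing of which chains were paired or displayed on cells.

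The miRNA and its matches in these genes are shown because one member, Nid1, holds a pair of full matches. RefSeq gives the mature sequence at chromosome 6 of GRCm38.p6, 30165962 to 30165986 on the minus strand. The study's methods print another sequence for mouse miR-182-5p, which lacks the seed used here. The RefSeq sequence is printed 5′ to 3′ with the seed (bases 2 to 8) in capitals.
mmu-miR-182-5p: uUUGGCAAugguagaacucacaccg
The seed pairs with TTGCCAA in a target, and an A after this match extends it to 8 bases, TTGCCAAA. In the longest 3′-UTR of each gene in GENCODE M21 (GRCm38), read on the transcript strand, TTGCCAA occurred in 3 of the 37 members that passed the filter on low counts (8.11%) and in 1569 of the 12522 tested genes with a 3′-UTR there (12.5%). The 8-base match occurred in 1 of the 37 members (2.70%) and in 5.24% of the genes. The 4 places are printed with the match in capitals and a few bases around it, all in the last exon of the transcript.
Nid1 (first): attcttcttctTTGCCAAagtacctgta
Nid1 (second): aagtggcacatTTGCCAAaagaatgttt
Itga1: gcagccattggTTGCCAAggactgtgtt
Itgb8: gatgaatttccTTGCCAAgaattcagtg
The Nid1 matches lie on the plus strand of chromosome 13 of GRCm38, at 13510977 to 13510983 and at 13511774 to 13511780, in exon 20 of 20. They start at bases 910 and 1707 of a 3′-UTR of 2202 bases, and each is followed by an A. The match in Itga1 is at chromosome 13, 114956180 to 114956186 (minus strand, exon 29), and that in Itgb8 at chromosome 12, 119160957 to 119160963 (minus strand, exon 14), both without the A. The related 7-base match TGCCAAA, which overlaps the first in 6 bases and was searched after the values were seen, occurred in 5 members (Itga3, Itga4, Itga11, Lamc1 and Nid1), or 13.5% of the 37, against 14.3% of genes. A match is a description of the letters in the transcript and does not show that the miRNA binds there.

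Counts were tested across all 13117 genes that passed the filter on low counts (about 10 reads in at least 3 samples) with edgeR's quasi-likelihood test and Benjamini-Hochberg adjustment. A gene was called when it changed at least 1.5-fold with an adjusted p under 0.05. Of the 37 members tested, 3 were called higher with miR-182-5p (Itga7, Lama5 and Itga4), or 8.11%, while 1.97% of the 13117 genes were. Another 6 were called lower (Itgb3, Itgb7, Itgb2, Itga6, Itgae and Itgb4), or 16.2%, against 5.48% of all genes (7.45% in either direction). By the adjusted p alone 13 members were higher and 10 lower, 62.2% of the 37 in all, against 46.7% of all genes (23.2% higher and 23.5% lower). In 24 of the 37 (64.9%) the groups did not overlap, which was also true of 54.8% of all genes tested. The median log2 fold change of the 37 members was -0.05, and that of all genes tested was -0.004. The members moved in both directions.

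**Figure D1:**
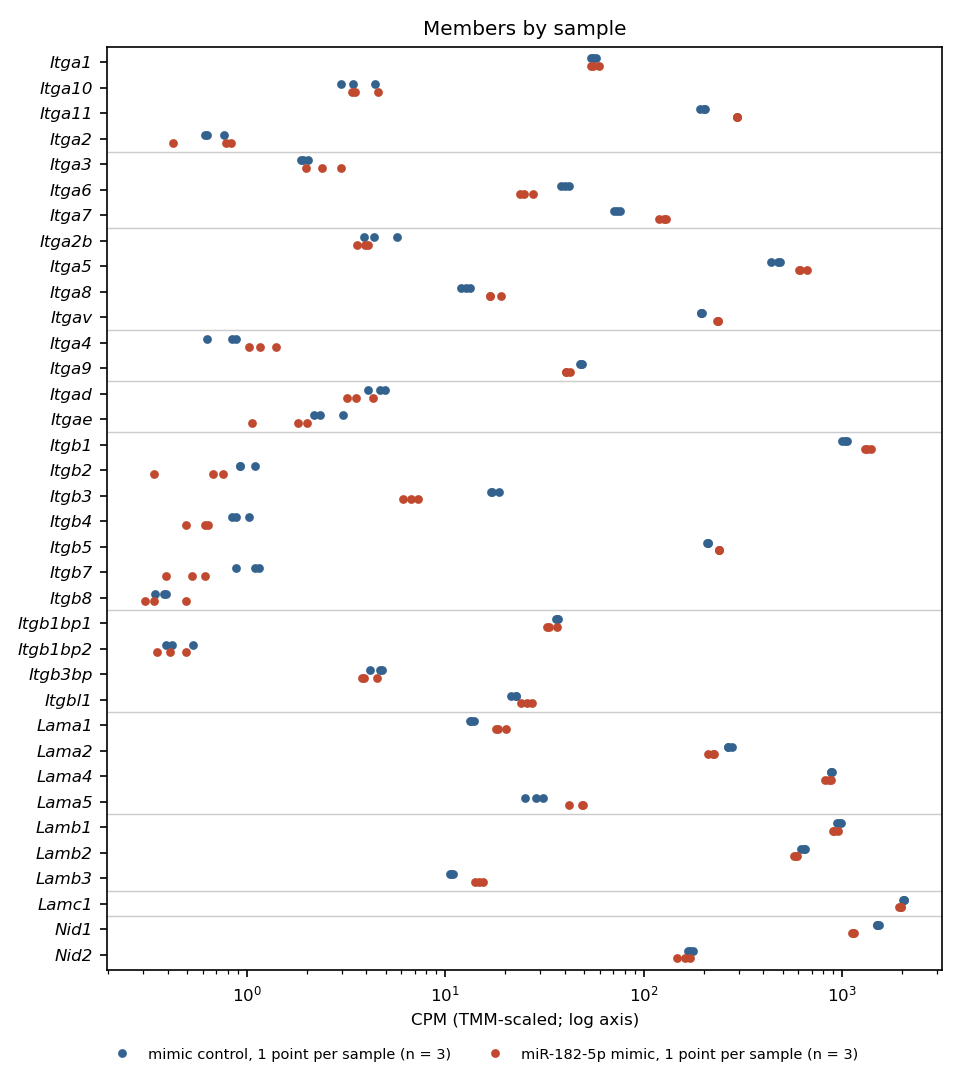
Level of 36 tested members in every sample, in CPM on a log axis, with 1 point per sample and grey lines between classes of chains, blue for the 3 mimic control samples and red for the 3 miR-182-5p mimic samples. Itga7, Itga11 and Lama5 lie higher and Itgb3, Itga6 and Nid1 lower in all mimic samples.

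Among the laminin receptors the 2 abundant α chains went opposite ways. Itga7, whose α7 chain pairs with β1 and is best known from muscle, was expressed at 75.4, 73.2 and 71.0 CPM in mimic control replicates 1 to 3 and at 119, 126 and 129.8 CPM in mimic replicates 1 to 3. All mimic samples lay above all control samples, a 1.71-fold rise with a log2 fold change of 0.77 (SE 0.038, adjusted p = 1.22e-09). Itga6, which encodes the α6 laminin receptor chain, had 41.9, 40.2 and 38.1 CPM with mimic control and 23.7, 27.6 and 25.0 CPM with the mimic. Here all mimic samples lay below all controls, with a log2 fold change of -0.66 (SE 0.061, adjusted p = 8.74e-07). Both calls held in all 6 fits that left out 1 sample. The third chain of this class, Itga3, was scarce at 1.92, 2.03 and 1.88 CPM with mimic control and 2.98, 2.39 and 1.98 CPM with the mimic. Its groups overlapped, and the 95% interval of its log2 fold change ran from -0.04 to 0.71 (adjusted p = 0.131). Within a sample, and per kilobase of exon (the joined exons of the gene's protein-coding transcripts in GENCODE M21), the level of Itga7 divided by that of Itga6 was 2.39, 2.42 and 2.47 in the controls and 6.67, 6.07 and 6.89 with the mimic. The ratio was higher in 3 of 3 mimic samples (exact permutation test, two-sided, p = 0.1, which is as low as 3 against 3 samples can reach, and 0.1 after Benjamini-Hochberg adjustment over 7 such ratios, all picked after their values were seen).

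Most of the tested markers of smooth muscle and pericytes, a list of contractile and other genes, moved in the direction of Itga7. The summed level of 8 such markers was 3624 to 3799.7 CPM with mimic control and 4348 to 4702 CPM with the mimic. Of the 7 tested, 5 passed the adjusted p higher and 1 lower (23.2% and 23.5% of all genes), and 0 were called. Among 7 skeletal muscle markers, Myod1, Myf5, Pax7 and Ckm had 0 reads in every sample, and 2 were tested. Of these, 1 did not pass the adjusted p. The other, Acta1, which encodes skeletal α-actin, was called higher at 32.7, 30.5 and 28.4 CPM against 18.6, 18.5 and 18.2 CPM. The sum of the 7 was 18.8 to 19.2 CPM with mimic control and 29.0 to 33.2 CPM with the mimic, and Acta1 made up most of it. The part of such cells in the rise of Itga7 was not tested.

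Of the 4 α chains that bind fibronectin and other proteins with the RGD motif (arginine, glycine, aspartate), 3 rose by less than 1.5-fold and Itga2b did not pass the test. Itga5, the fibronectin receptor chain and the most abundant α chain per kilobase, had 483, 439 and 475 CPM with mimic control and 659.6, 609 and 605 CPM with the mimic. The groups did not overlap, and the log2 fold change of 0.42 (SE 0.041, adjusted p = 1.33e-06) fell short of the fold cutoff. Itgav, whose αv chain pairs with several β chains, rose with a log2 fold change of 0.28 (SE 0.026, adjusted p = 1.25e-06) from 194 ± 1.52 to 235 ± 2.35 CPM (SD, n = 3 each). Itga8, the nephronectin receptor chain, rose with a log2 fold change of 0.47 (SE 0.072, adjusted p = 0.000102) from 12.7 ± 0.600 to 17.6 ± 1.32 CPM. These 3 passed the adjusted p and were higher in all mimic samples. Itga2b, the platelet chain αIIb, lay between 3.61 and 5.70 CPM over the 6 samples with overlapping groups and a log2 fold change of -0.26 (adjusted p = 0.147). Itga5 made up 49.1% ± 0.999 (SD, n = 3) of the α chain total per kilobase with mimic control and 49.7% ± 1.58 with the mimic, a difference within the spread. Divided by Itgav per kilobase, Itga5 was 4.02, 3.60 and 3.94 in the controls and 4.50, 4.13 and 4.18 with the mimic. This ratio, picked after seeing its values, was higher in 3 of 3 mimic samples (exact two-sided permutation test, p = 0.1, the lowest possible).

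Of the collagen receptors, Itga11 passed the test and Itga1, Itga2 and Itga10 did not. Itga11, a fibrillar collagen receptor of fibroblasts, had 201, 192 and 203 CPM with mimic control and 293, 294 and 295 CPM with the mimic. The mimic samples lay above the controls and close together. Its log2 fold change of 0.57 (SE 0.029, adjusted p = 2.44e-09) was just under the 1.5-fold line, which is at 0.585. Itga1 stood at 55.5 ± 1.67 CPM with mimic control and 56.2 ± 2.89 CPM with the mimic (SD, n = 3 each), and the interval of its log2 fold change, -0.08 to 0.12, lies inside the 1.5-fold lines. Its 3′-UTR holds 1 of the seed matches. Per kilobase, Itga11 was 7.74, 7.64 and 8.32 times Itga1 in the controls and 11.98, 11.7 and 10.9 times with the mimic. An exact permutation test, two-sided, gave p = 0.1, the lowest possible here, for a ratio picked after seeing its values. Itga10, at 3.61 CPM in the controls, and Itga2, with 12 to 23 reads per sample, had overlapping groups. Of the exon bases of Itga10, 1739 are shared with another gene model on the same strand, and how the authors' counting treated reads on shared bases is not given in the sources used here, so the counts of genes with such bases are uncertain to that extent.

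Itga9 and Itga4, a related pair of receptor chains that both bind VCAM-1 and osteopontin, differed in level and direction. Itga9 had 47.7, 48.6 and 48.5 CPM with mimic control and 40.8, 40.6 and 42.6 CPM with the mimic, lower in all mimic samples, with a log2 fold change of -0.22 (SE 0.042, adjusted p = 0.000615). Itga4 was near the detection limit, at 16, 23 and 22 reads in the controls and 41, 27 and 33 in the mimic samples. It was called higher with a log2 fold change of 0.61 (SE 0.23, adjusted p = 0.0432), but in the 6 fits that left out 1 sample it kept the call only without mimic replicate 2, and its adjusted p reached at most 0.160. Leaving out control replicate 1, 2 or 3 gave log2 fold changes of 0.48, 0.71 and 0.67, and leaving out mimic replicate 1 or 3 gave 0.48 and 0.64. Of its exon bases, 1124 also belong to Cerkl on the opposite strand.

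**Figure D2:**
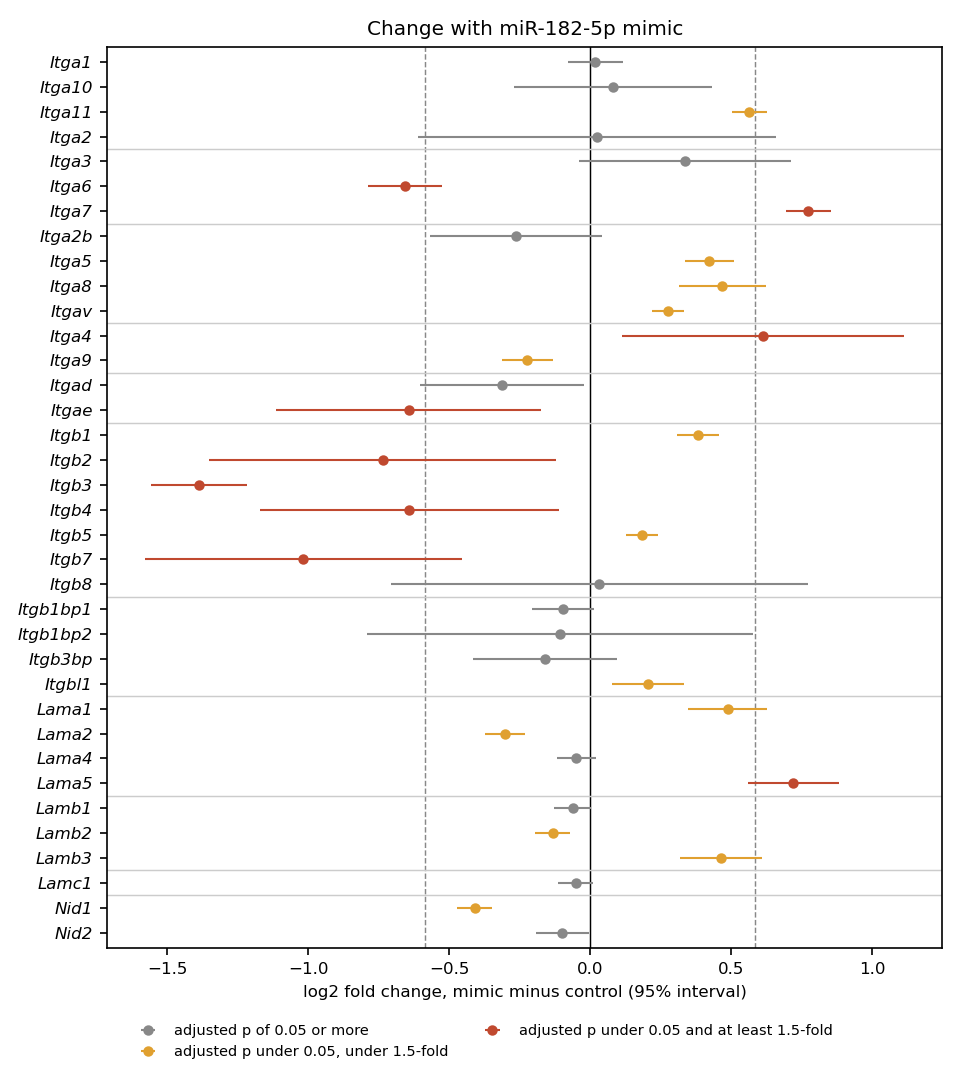
Log2 fold change (mimic minus control) of 36 tested members with 95% intervals from edgeR, n = 3 samples per group (red past both cutoffs, orange past the adjusted p only, grey the rest, dashed lines at 1.5-fold). The intervals of the scarce chains Itga2, Itga4, Itgb2, Itgb4, Itgb7 and Itgb8 are wide, and Itgb3 lies farthest to the left at -1.39.

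The 2 abundant β chains rose a little, and 4 of the 5 scarcer ones tested were called lower. The share of all genes called lower was 5.48%. Of the 4 calls, those of Itgb3 and Itgb7 held whichever sample was dropped, and those of Itgb2 and Itgb4 did not. Itgb7 had only 11 to 30 reads per sample, so a link between abundance and direction rests on few genes. Itgb1, the common partner, had 996, 1029.9 and 1058 CPM with mimic control and 1398, 1327 and 1295 CPM with the mimic, a log2 fold change of 0.38 (SE 0.035, adjusted p = 8.2e-07). Itgb5, a partner of αv, had 208, 211 and 211 CPM with mimic control and 240.1, 238 and 238 CPM with the mimic, a log2 fold change of 0.18 (SE 0.026, adjusted p = 4.92e-05). In both genes every mimic sample exceeded every control, by less than 1.5-fold. Itgb3, another partner of αv and the chain of the platelet and osteoclast receptors, had 18.6, 16.9 and 17.2 CPM with mimic control and 7.26, 6.15 and 6.73 CPM with the mimic. Its mimic samples all lay below the controls, 2.61-fold down, with a log2 fold change of -1.39 (SE 0.079, adjusted p = 6.53e-09). The change of Itgb3 ranked 154 of 13117 genes by p and stayed at -1.45 to -1.32 in the 6 fits that left out 1 sample. No TTGCCAA or TGCCAAA match was found in its 3′-UTR of 3331 bases.

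Per kilobase, the level of Itgb3 divided by that of Itgb5, the partners of αv compared here, was 0.0525, 0.0469 and 0.0480 in the controls and 0.0177, 0.0152 and 0.0166 with the mimic. This ratio, picked after seeing its values, was lower in 3 of 3 mimic samples (exact two-sided permutation test, p = 0.1, the lowest possible). Itgb3 was 0.923% ± 0.0680 of the β chain total with mimic control and 0.279% ± 0.0183 with the mimic (SD, n = 3 each), while Itgb1 was 80.0% ± 0.431 and 82.7% ± 0.489. Endothelial cells also carry β3, and the 8 endothelial markers summed to 8.93 to 10.03 CPM in the controls and 5.47 to 6.45 CPM with the mimic. Of these, Cldn5 had 0 reads in every sample, Pecam1 had 3 to 11 and Cdh5 had 11 to 17. Of the 4 tested, 3 did not pass the adjusted p and 1, Tek, was called lower, as were 5.48% of all genes. Tek stood at 5.81, 6.74 and 5.59 against 2.71, 2.35 and 2.23 CPM, so the lower sum rested largely on this gene. The part of such cells in the fall of Itgb3 was not tested.

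The remaining β chains rested on few reads. Itgb7, which pairs with α4 and αE on leukocytes, had 28, 30 and 23 reads in the controls and 18, 14 and 11 in the mimic samples, or 1.10, 1.15 and 0.881 and 0.617, 0.531 and 0.390 CPM. Its log2 fold change of -1.02 (SE 0.26, adjusted p = 0.00545) was called in all 6 fits without 1 sample, with values from -1.18 to -0.85. Itgb2, the common β chain of leukocyte integrins, had 28, 24 and 24 reads in the controls and 10, 20 and 19 in the mimic samples. Its log2 fold change of -0.74 (SE 0.29, adjusted p = 0.0482) lost the call in 5 of those 6 fits and kept it without mimic replicate 2, and without mimic replicate 1, the lowest, the log2 fold change was -0.45. Itgb4, the partner of α6 in epithelial hemidesmosomes, had 26, 22 and 23 reads and 18, 13 and 18 reads. The call of Itgb4, with a log2 fold change of -0.64 (SE 0.25, adjusted p = 0.0462), was lost in all 6 fits that left out 1 sample, with values from -0.70 to -0.54. In CPM the groups of these 3 genes did not overlap. Itgb8, which activates latent TGF-β together with αv, had 9 to 14 reads per sample and overlapping groups, with an interval of -0.71 to 0.77. Itgb6 had at most 1 read in any sample and was not tested. Of the exon bases of Itgb4, 537 are shared with an RNA gene on the opposite strand.

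Leukocyte α chains were close to absent, apart from 2. Itgal, Itgam and Itgax, which encode the α chains of LFA-1, Mac-1 and CD11c, had at most 2 reads in any sample. Itgad, their neighbour on chromosome 7, had 126, 123 and 107 reads in the controls and 93, 94 and 122 in the mimic samples, or 4.59 ± 0.438 and 3.69 ± 0.578 CPM (SD, n = 3 each). Its groups overlapped (adjusted p = 0.0724), and 890 of its exon bases are shared with 4 other gene models, 330 of them on the same strand. Itgae, the αE chain that binds E-cadherin on T cells, had 78, 61 and 57 reads in the controls and 31, 53 and 51 in the mimic samples. It was called lower with a log2 fold change of -0.64 (SE 0.22, adjusted p = 0.0267). The call was lost without control replicate 1 (-0.48) and without mimic replicate 1 (-0.40), the lowest sample. The 9 macrophage markers summed to 14.5 to 15.6 CPM in the controls and 12.4 to 15.8 CPM with the mimic. Of the 4 tested, 1 was called lower (5.48% of all genes were) and 3 did not pass the adjusted p. Ptprc was at 0 reads in 3 of the 6 samples.

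**Figure D3:**
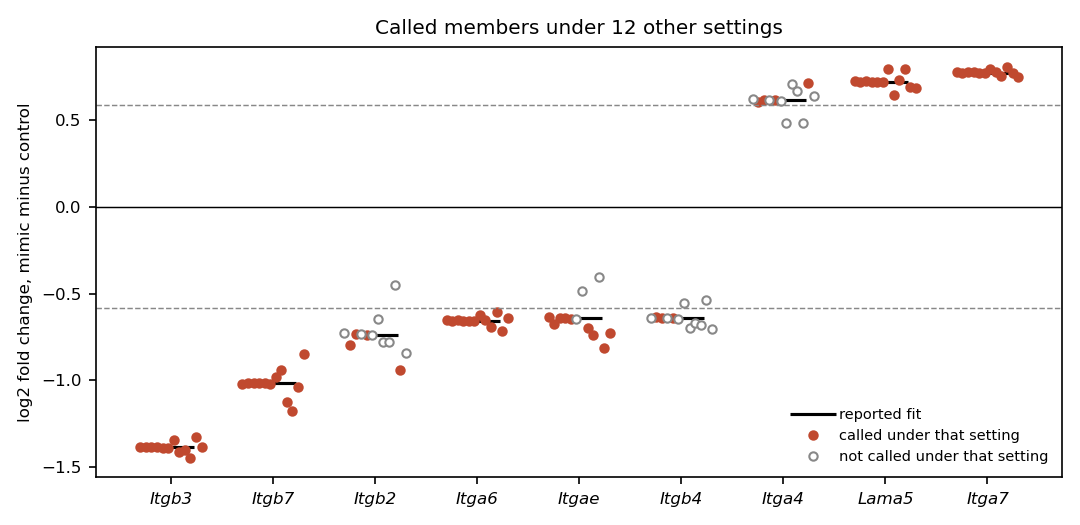
Log2 fold change of the 9 called members in the reported fit (black bars) and under 12 other settings (6 other tests, scalings, filters or blocks, and 6 fits that each left out 1 sample), with filled red points for called, open grey points for not called and dashed lines at 1.5-fold. Itgb3, Itgb7, Itga6, Lama5 and Itga7 were called under all 12, whereas Itgb2, Itgae, Itgb4 and Itga4 lost the call under some.

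The calls of the scarce chains also depended on the test. With DESeq2, whose log2 fold changes were 0.62 for Itga4, -0.73 for Itgb2 and -0.64 for Itgb4, the adjusted p values were 0.170, 0.160 and 0.217. With edgeR and no filter on low counts they were 0.0594, 0.0615 and 0.0766. Itgae kept its call under both, at an adjusted p of 0.0499 with DESeq2, just under the cutoff.

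The main laminin chains of these cells differed little between the groups, while scarcer chains moved up. Lamc1, the γ1 chain found in most laminins, had 2031, 2019 and 2044 CPM with mimic control and 1935, 1972 and 1976 CPM with the mimic. Lamb1 had 981, 957 and 934 CPM with mimic control and 900.5, 906 and 945 CPM with the mimic. Lama4, the α4 chain typical of fat and vessels, had 876, 877 and 889 CPM and 816, 860.4 and 878 CPM. The intervals of their log2 fold changes were -0.11 to 0.01, -0.13 to 0.00 and -0.12 to 0.02, all inside the 1.5-fold lines, with adjusted p values of 0.169, 0.119 and 0.230. For Lamc1 the mimic samples nevertheless all lay just below the controls.

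A pair of abundant chains fell slightly. Lama2, the α2 chain of muscle and peripheral nerve laminin, had 277, 265 and 267 CPM with mimic control and 209, 222 and 225 CPM with the mimic, a log2 fold change of -0.30 (SE 0.033, adjusted p = 4.51e-06). Lamb2, the β2 chain that can replace β1, had 648, 638 and 622 CPM with mimic control and 568, 581 and 592 CPM with the mimic, a log2 fold change of -0.13 (SE 0.029, adjusted p = 0.00177). In neither gene did the groups overlap, and neither change reached 1.5-fold. Relative to Lama4 per kilobase, Lama2 stood at 0.195, 0.186 and 0.185 in the controls and 0.158, 0.159 and 0.158 with the mimic. This ratio, picked after seeing its values, was lower in 3 of 3 mimic samples (exact two-sided permutation test, p = 0.1, the lowest possible). Peripheral nerve cells make Lama2, and of 6 Schwann cell or glial markers 5 were tested, of which 1 was higher and 1 lower by the adjusted p, with sums of 13.2 to 14.7 CPM in the controls and 13.3 to 16.3 CPM with the mimic. Fibroblasts and adipocyte progenitors make it too, and their 8 markers summed to 2153 to 2184 CPM with mimic control and 1628 to 1753 CPM with the mimic. Of the 7 tested, 1 (Thy1) was higher and 6 lower by the adjusted p, and Pdgfra, Pi16, Cd34 and Dcn were called lower. Among all genes tested, 23.2% were higher and 23.5% lower by the adjusted p, and 5.48% were called lower. The part of these cells in the fall of Lama2 was not tested.

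Lama5, whose α5 chain is found in the basement membranes of mature vessels and epithelia, was the called laminin. It had 31.0, 25.2 and 28.6 CPM with mimic control and 41.9, 48.8 and 49.2 CPM with the mimic, 1.65-fold higher, with a log2 fold change of 0.72 (SE 0.075, adjusted p = 3.03e-06). The groups were well apart, and the log2 fold change stayed within 0.64 to 0.79 in the 6 fits that left out 1 sample. Divided by Lama4 per kilobase, Lama5 was 0.0188, 0.0153 and 0.0171 in the controls and 0.0273, 0.0301 and 0.0297 with the mimic. An exact permutation test, two-sided, gave p = 0.1, the lowest possible here, for a ratio picked after seeing its values. Lama5 thus remained a minor chain, with 1.40% ± 0.139 of the laminin α total per kilobase in the controls and 2.42% ± 0.126 with the mimic (SD, n = 3 each), beside 82.3% ± 0.488 and 83.2% ± 0.123 for Lama4.

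Lama1, the α1 chain of early embryonic basement membranes, had 13.9, 13.4 and 13.3 CPM with mimic control and 18.1, 18.5 and 20.3 CPM with the mimic, a log2 fold change of 0.49 (SE 0.065, adjusted p = 2.96e-05). Lamb3, whose β3 chain belongs with the α3 chain of Lama3 in a laminin of skin, had 10.7, 10.95 and 10.5 CPM with mimic control and 14.8, 14.1 and 15.4 CPM with the mimic, a log2 fold change of 0.46 (SE 0.067, adjusted p = 6.18e-05). Both genes were higher in every mimic sample and passed the adjusted p below the fold cutoff. Lama3 had 0 to 3 reads per sample and Lamc3 1 to 5, and neither was tested. Of 6 epithelial markers none passed the filter, with sums of 0.153 to 0.268 CPM in the controls and 0 to 0.206 CPM with the mimic, and Krt8, Krt14 and Krt18 had 0 reads in every sample.

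**Figure D4:**
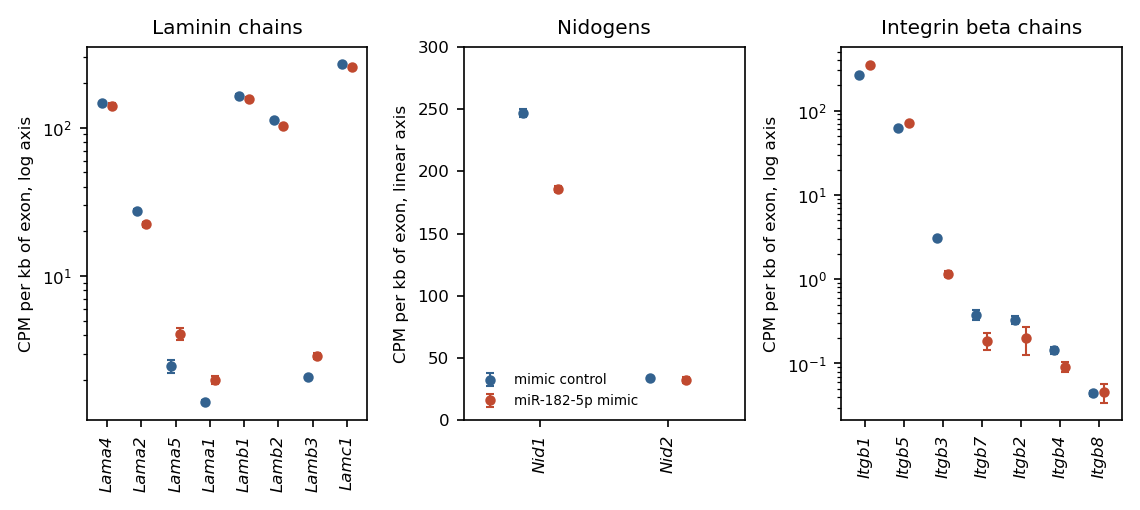
Mean level per kilobase of exon (CPM per kb) of laminin chains, nidogens and integrin β chains, with SD bars over n = 3 samples per group, mimic control in blue and miR-182-5p mimic in red, on log axes at left and right and a linear axis from 0 in the middle. Lamc1, Lamb1 and Lama4 lie nearly level between groups, Lama5, Lama1 and Lamb3 are higher with the mimic, and Nid1 and Itgb3 are lower.

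Nid1, which encodes the main nidogen of these cells and holds both 8-base seed matches, fell in all mimic samples. It had 1523, 1485 and 1501 CPM with mimic control and 1122, 1127 and 1147 CPM with the mimic, 1.33-fold lower, with a log2 fold change of -0.41 (SE 0.028, adjusted p = 4.8e-08). The groups were far apart compared with their spread, although the change did not reach 1.5-fold. Nid2, which has no match in its 3′-UTR of 591 bases, had 176, 170.5 and 168 CPM with mimic control and 148, 161 and 171 CPM with the mimic. Its groups overlapped, and its interval of -0.19 to -0.01 lies nearer to 0 than that of Nid1, -0.47 to -0.35 (adjusted p = 0.0787 for Nid2). Per kilobase, Nid1 was 7.07, 7.12 and 7.32 times Nid2 in the controls and 6.21, 5.70 and 5.48 times with the mimic. This ratio, picked after seeing its values, was lower in 3 of 3 mimic samples (exact two-sided permutation test, p = 0.1, the lowest possible). Nid1 together with Nid2 came to 281 ± 3.73 CPM per kb with mimic control and 218 ± 4.36 with the mimic (SD, n = 3 each). Lamc1, whose γ1 chain nidogens bind, stood at 267 ± 1.63 and 257 ± 2.95 CPM per kb. An antisense RNA gene shares 143 exon bases with Nid1, and Rtraf on the opposite strand shares 437 with Nid2. Nid1 fell beside the lower sums of the adipocyte and of the progenitor or fibroblast markers. The part of these cells in its fall was not tested, nor was that of its seed matches. The other tested members with a TTGCCAA match, Itga1 (log2 fold change 0.02) and Itgb8 (0.03), did not pass the adjusted p.

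Of the 6 symbols with the integrin prefix that were not counted here as integrin chains, Itgbl1 passed the adjusted p. Itgbl1, a secreted protein with repeats like those of β integrins, had 21.5, 22.8 and 22.6 CPM with mimic control and 25.8, 27.3 and 24.1 CPM with the mimic, a log2 fold change of 0.21 (SE 0.059, adjusted p = 0.0108). Leaving out 1 sample raised its adjusted p to at most 0.0522, reached without mimic replicate 2, and it stayed under 0.05 in the other 5 fits. Itgb1bp1, which binds the tail of β1 inside the cell, had 36.4 ± 0.450 and 34.1 ± 2.01 CPM (SD, n = 3 each) with overlapping groups. Itgb3bp and Itgb1bp2 did not pass either, and Itgb1bp3 (now Nmrk2) and Itgb2l had at most 1 read.

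The proteins that connect integrins to actin were examined as a list of 38 genes, 37 of them tested. Of these, 18 were higher and 10 lower by the adjusted p, with a median log2 fold change of 0.11, where 23.2% of all genes tested were higher and 23.5% lower. Called were 2 higher (5.41%, against 1.97% of all genes) and 1 lower (2.70%, against 5.48%). Nedd9, a scaffold of adhesion signaling, rose from 50.2 ± 1.20 to 84.4 ± 5.07 CPM, a log2 fold change of 0.75 (SE 0.045, adjusted p = 1.25e-08). Tln2, one of the talins that switch integrins on, rose from 194 ± 7.52 to 294 ± 11.7 CPM, a log2 fold change of 0.60 (SE 0.036, adjusted p = 1.11e-08). Lims1, the PINCH adaptor that binds integrin-linked kinase, fell from 159 ± 3.63 to 103 ± 1.79 CPM, a log2 fold change of -0.62 (SE 0.030, adjusted p = 1.17e-09). Errors are SDs over 3 samples a group, and in these 3 genes the groups did not overlap. Named after their values were seen, the kindlin gene Fermt2 (log2 fold change 0.53) and Lims2 (0.52) passed the adjusted p higher, and the other talin, Tln1 (-0.10), passed it lower.

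Among 30 partners of laminin in the basement membrane and on cells, 29 were listed and 25 tested, with 7 higher and 8 lower by the adjusted p (23.2% and 23.5% of all genes) and a median log2 fold change of 0.03. None was called higher and 4 were called lower, 16% of those tested against 5.48% of all genes. Ntn1 and Ntn4 encode netrins, which resemble the ends of laminin chains. Ntn1 fell from 18.6 ± 1.01 to 8.86 ± 0.725 CPM, a log2 fold change of -1.07 (SE 0.076, adjusted p = 6.37e-08). Ntn4 fell from 11.2 ± 0.673 to 7.26 ± 0.591 CPM, with a log2 fold change of -0.63 (SE 0.086, adjusted p = 3.72e-05). Errors of both are SDs over 3 samples a group. Smoc1 (log2 fold change -0.62) and Frem1 (-1.15, on 8 to 22 reads per sample) were the others. Named after their values were seen, the perlecan gene Hspg2 (0.16) and the dystroglycan gene Dag1 (0.20) passed the adjusted p higher. Col4a1 (-0.0034) did not pass it, with an interval of -0.08 to 0.07, and Col4a2 (0.13) did.

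The list of 23 other integrin ligands had 19 tested, with 6 higher and 10 lower by the adjusted p (23.2% and 23.5% of all genes) and a median log2 fold change of -0.17. None was called higher and 2 were called lower, 10.5% of those tested against 5.48% of all genes. Tgfbi, a matrix protein bound by β1, αvβ3 and αvβ5 integrins, had 41.0, 39.7 and 37.7 CPM with mimic control and 9.08, 11.04 and 9.71 CPM with the mimic, a log2 fold change of -1.99 (SE 0.069, adjusted p = 3.2e-11). Icam1, the ligand of leukocyte integrins, had 67, 68 and 69 reads in the controls and 46, 45 and 43 in the mimic samples, a log2 fold change of -0.71 (SE 0.15, adjusted p = 0.00136). In both genes all mimic samples lay below the controls. Named after their values were seen, fibronectin (Fn1, log2 fold change -0.47), the main ligand of α5, passed the adjusted p lower, as did Vcam1 (-0.53), a ligand of α4 and α9. Tenascin C (Tnc, 0.43) and fibulin 5 (Fbln5, 0.45) passed it higher.

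**Figure D5:**
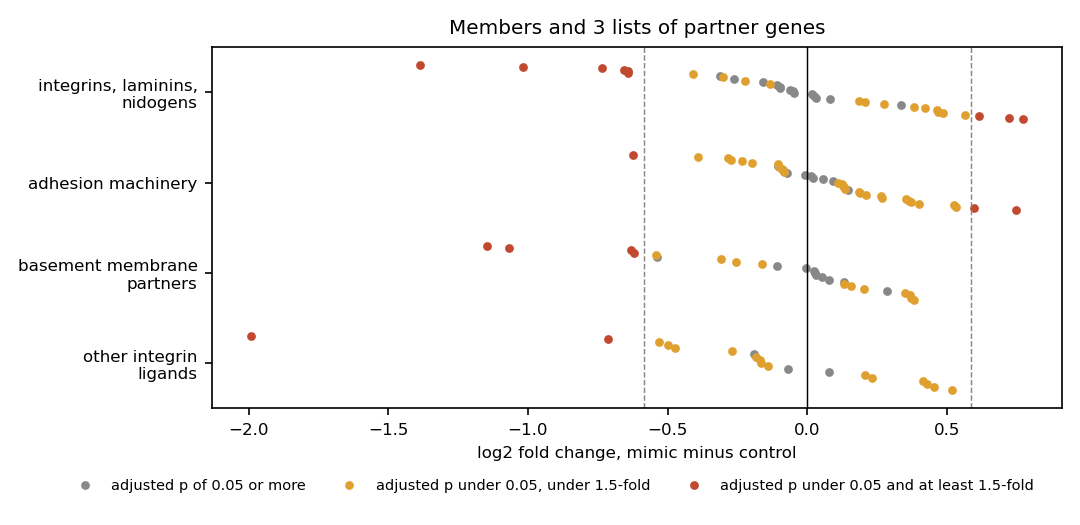
Log2 fold changes (mimic minus control) of 36 tested members and of the tested genes of 3 partner lists, 1 point per gene, sorted within each list (red past both cutoffs, orange past the adjusted p only, grey the rest, dashed lines at 1.5-fold). Tgfbi is the leftmost point at -1.99, and every list has genes on both sides of 0.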

How the data were processed

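Poly(A) RNA of 6 samples, 3 given mimic control and 3 given miR-182-5p mimic, was sequenced by the authors on a HiSeq 3000. The deposited values were raw counts of reads per gene symbol, 1 file per sample, and the submitters' processing notes name bcl2fastq, TopHat2, HTSeq and the mouse build mm9. Their versions, the gene annotation and the strand setting of the counting are not given in the sources used here. The 5 tally lines that name no gene were removed, leaving 22609 symbols and 25869810 to 28796712 reads per sample. Total reads before alignment were not analysed here, and counts of a few reads limit the precision of the scarce chains, as their intervals show.

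Counts were scaled by TMM, filtered with filterByExpr and tested across 13117 genes with edgeR 4.0.16 (glmQLFit and glmQLFTest, Benjamini-Hochberg adjustment, no block) in R 4.3.3. A call needed an adjusted p under 0.05 and at least 1.5-fold, the criteria of the study, whose methods tie no test to the RNA-Seq counts. The edgeR steps were tested on simulated data with 2-fold changes only, which does not cover the smaller changes reported here. Fold changes are mimic over control. SEs and 95% intervals come from the fit. Ratios between genes within a sample were compared by exact permutation over samples. They were picked after their values were seen, so this test cannot add support to them.

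Exon lengths, shared exon bases and 3′-UTRs came from GENCODE M21 on GRCm38, not from mm9, and were matched by symbol. The miRNA sequence came from RefSeq (GRCm38.p6). Coordinates are those of GRCm38.

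The members and lists were chosen with earlier results of these data known. By rule, values per sample were given for called members, tested laminin chains but for 1 that is not reported here, nidogens and β chains, and the most abundant α chain of each binding class, and from the partner lists the called genes were named. Samples with the same number did not deviate together (correlations of -0.18, -0.044 and -0.079), and nothing says that numbers pair samples. The alternatives were DESeq2 1.42.0, limma-voom (limma 3.58.1), DESeq2 size factors, other filters, a replicate block, glmTreat, a 2-fold cutoff, other seed matches and leaving out each sample in turn.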

Additional observations from a re-analysis of the deposited data

How the results depend on the processing

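The numbers of members called, 3 higher and 6 lower, stayed within 1.5 times of these values with limma-voom, DESeq2, DESeq2 size factors in edgeR, no filter and a filter of 10 reads in every sample. Whether samples with the same number share a cell preparation is not known. With the replicate number as a block, 2 were called higher and 3 lower, without Itga4 (adjusted p = 0.0743), Itgb2 (0.0774), Itgb4 (0.0621) and Itgae (0.0560). Leaving out each sample in turn gave 2 to 4 higher and 3 to 5 lower, with 3 lower without control replicate 1 and without mimic replicate 1, where Itgb2, Itgb4 and Itgae were lost. A test against 1.5-fold itself (glmTreat) called 1 higher (Itga7) and 1 lower (Itgb3), and a 2-fold cutoff left 0 higher and 2 lower (Itgb3 and Itgb7). The share of 3′-UTRs with a seed match, 8.11% of the tested members, was 2.70% for the 8-base match and 13.5% for TGCCAAA, an alternative chosen after seeing the data.

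Over the 37 single members and 12 settings (without glmTreat and the 2-fold cutoff), 398 values kept direction and call, 28 kept direction and lost the call, 3 gained it, and 14 changed sign. The sign changes were all in genes that did not pass the test. With limma-voom, Itga2 was at -0.031 and Itgb8 at -0.00055. Without 1 sample, the log2 fold change of Itga1 ranged from -0.021 to 0.049, that of Itga10 from -0.065 to 0.26, that of Itga2 from -0.13 to 0.28, that of Itgb1bp2 from -0.23 to 0.037 and that of Itgb8 from -0.20 to 0.17. The causes were not tested. Scarce chains with 30 reads or fewer per sample limit what can be read from Itga2, Itgb2, Itgb4, Itgb7, Itgb8 and Itgb1bp2, and leaving out a sample leaves 2 in its group.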
